A study of Mus musculus with 8 samples.

Results

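The 41 genes described here are 16 genes of DNA replication in S phase and 25 genes of G2 and mitosis, chosen by name from a table of 24539 gene symbols. All 41 are in the table, and all 41 were among the 13459 genes with enough counts to be tested. The S-phase set holds Mcm2, Mcm3, Mcm4, Mcm5, Mcm6, Mcm7, Pcna, Gins2, Rrm1, Rrm2, Tyms, Cdc6, Cdt1, Ccne1, Ccne2 and E2f1. The G2/M set holds Mki67, Top2a, Ccnb1, Ccnb2, Cdk1, Ccna2, Aurka, Aurkb, Bub1, Bub1b, Plk1, Cdc20, Cenpe, Cenpf, Kif11, Kif23, Kif20a, Kif2c, Nusap1, Tpx2, Birc5, Cks2, Ube2c, Ttk and Ndc80. Their RNA was measured by sequencing in nephron progenitors, the mesenchymal cells that give rise to nephrons, sorted from mouse kidneys at E18.5. There were 4 groups of 2 libraries. All 4, the WT-labelled group included, carried Six2GFPcre, a transgene that makes a fusion of GFP and Cre in nephron progenitors and by which the cells were sorted. The KO-labelled group was Smo c/c, with both alleles of Smo conditional, the Het-labelled group Smo c/+, and the WT-labelled group Smo +/+. The SmoM2-labelled group was Smo +/+ with Rosa26 SmoM2/+, from which Cre turns on an active form of Smo, which relays the Hedgehog signal from the cell membrane. Cre acts only where Six2GFPcre is on, and whether a library held the cells of 1 embryo or of a pool is not given in the sources used here, so p-values measure only the spread between these libraries.

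Replication begins when Cdc6 and Cdt1 load the helicase made of Mcm2 to Mcm7 onto DNA, and cyclin E (Ccne1, Ccne2) helps to start S phase. Pcna clamps the polymerases to the template, Gins2 is part of the active helicase, and Rrm1, Rrm2 and Tyms make the nucleotides. E2f1 is a transcription factor that switches on many of these genes. Mitosis is driven by Cdk1 with its cyclins Ccna2, Ccnb1 and Ccnb2 and by the kinases Aurka, Aurkb and Plk1, watched over by the checkpoint kinases Bub1, Bub1b and Ttk, and ended by Cdc20 and Ube2c, which send cyclins to destruction. Genes of the G2/M set are known targets of the MuvB complex with B-Myb and FoxM1, which is recruited to promoters through a CHR (cell cycle genes homology region), often beside CCAAT boxes. Nephron progenitors divide throughout kidney development, as the pool both renews itself and feeds new nephrons.

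The promoters of the 2 sets differ in these elements, and 4 are printed because they show the contrast and belong to genes described below. RefSeq promoter sequences on GRCm38.p6 were matched by symbol for 34 of the 41 genes, 13 of the S-phase and 21 of the G2/M set, each running from 250 bases before to 50 bases after the start. Both strands were searched for E2F sites (TTTCCCGC or TTTGGCGC), CHRs (TTTGAA or TTCGAA) and CCAAT boxes (CCAAT). An E2F site was found in 6 of 13 S-phase genes (46.2%), in 0 of 21 G2/M genes and in 1.8% of all 27025 genes with a promoter. A CHR was found in 16 of 21 G2/M genes (76.2%), in 2 of 13 S-phase genes (15.4%) and in 21.7% of all genes. CCAAT boxes were found in 17 of 21 G2/M genes (81%), in 8 of 13 S-phase genes (61.5%) and in 41.1% of all genes. In the 250 bases before the start alone, a CHR was found in 9 of the 21 G2/M genes (42.9%, against 19.6% of all genes) and an E2F site in 4 of the 13 S-phase genes (30.8%, against 1.51%), so the counts depend on the window. The sequences below end at or just before the start given by the promoter entry, run 5′ to 3′ on the strand of the gene, and carry these matches in capitals. That start is not always the GENCODE one. The last 26 bases printed for Cdk1 and for Ube2c lie inside the GENCODE gene, and the Mcm6 and Mcm5 entries do not continue into a GENCODE transcript. They are those of Mcm6 (chr1:128359706-128359955, minus strand), Mcm5 (chr8:75109259-75109508, plus strand), Cdk1 (chr10:69352913-69353162, minus strand) and Ube2c (chr2:164769679-164769923, plus strand).
Mcm6: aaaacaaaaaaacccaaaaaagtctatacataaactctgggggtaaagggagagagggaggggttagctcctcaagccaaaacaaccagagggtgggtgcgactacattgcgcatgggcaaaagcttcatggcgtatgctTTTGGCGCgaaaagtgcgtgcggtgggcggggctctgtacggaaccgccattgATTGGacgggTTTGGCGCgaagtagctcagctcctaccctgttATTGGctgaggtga
Mcm5: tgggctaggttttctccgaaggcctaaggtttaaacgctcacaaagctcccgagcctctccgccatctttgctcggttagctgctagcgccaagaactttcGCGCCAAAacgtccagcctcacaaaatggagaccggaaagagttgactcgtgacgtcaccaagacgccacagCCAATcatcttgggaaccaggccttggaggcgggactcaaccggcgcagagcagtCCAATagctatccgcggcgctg
Cdk1: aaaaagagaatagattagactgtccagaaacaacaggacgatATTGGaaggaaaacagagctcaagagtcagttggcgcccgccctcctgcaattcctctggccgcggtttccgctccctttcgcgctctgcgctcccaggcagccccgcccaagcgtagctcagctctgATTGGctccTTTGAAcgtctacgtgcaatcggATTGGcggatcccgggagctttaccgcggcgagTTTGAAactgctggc
Ube2c: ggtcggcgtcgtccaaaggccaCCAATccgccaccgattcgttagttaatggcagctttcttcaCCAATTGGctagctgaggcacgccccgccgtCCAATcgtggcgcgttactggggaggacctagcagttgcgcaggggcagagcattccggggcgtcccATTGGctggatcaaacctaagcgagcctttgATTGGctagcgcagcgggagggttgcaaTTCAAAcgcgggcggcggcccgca
Mcm6 has TTTGGCGC starting 110 and 47 bases before the start, and Mcm5 has its reverse complement 149 bases before it. Cdk1 has TTTGAA 71 and 15 bases before the start, and Ube2c has its reverse complement 29 bases before it. The nearer match of Cdk1 and the match of Ube2c lie inside the GENCODE gene. In Ube2c a pair of CCAAT matches on opposite strands overlap. A match describes letters and not binding, and the absence of one says nothing about a factor.

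The listed counts summed to between 4422305 and 10305398 per library, lowest in the 2 KO-labelled libraries. Members took between 0.327% and 0.5% of them, and a member's own count lay between 41 (Ccne2) and 3203 (Mcm7). Smo, which checks the labels, was at 13.1 and 11.1 CPM (counts relative to the scaled library size) in the KO-labelled and at 14.4 and 23.9 CPM in the Het-labelled libraries, against 363 and 374 CPM in the WT-labelled and 604 and 628 in the SmoM2-labelled libraries. The Het-labelled libraries carry 1 intact allele by their label but did not differ past the threshold from the KO-labelled ones in Smo (log2 -0.65, edgeR adjusted p 0.0906), so the label is in doubt and every direction below is between libraries as labelled. Both KO-labelled libraries had the male and both Het-labelled libraries the female pattern of Y-linked and Xist counts. In the WT- and SmoM2-labelled groups replicate 1 was male and replicate 2 female. The 8 progenitor markers were all detected in every group and summed to between 3976 and 5308 CPM in the KO- and Het-labelled and to between 3333 and 3836 CPM in the other libraries. Endothelial markers summed to at most 4.87 CPM, immune markers to at most 15.5 CPM and collecting duct markers to at most 46.5 CPM. In such bulk libraries a larger share of dividing cells and more of a transcript per cell cannot be told apart.

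All 41 genes were detected in every library, at levels that spanned a wide range. Per kilobase of gene length, the mean level over the WT-labelled libraries was highest for Pcna (133 CPM per kilobase), Mcm7 (120), Cdc20 (77.5) and Ube2c (77.1) and lowest for Ccne2 (2.38). Pcna made up 20.5% and Mcm7 14.9% of the S-phase sum over all libraries, and Ube2c made up 14.9% and Cdc20 13.2% of the G2/M sum.

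**Figure D1:**
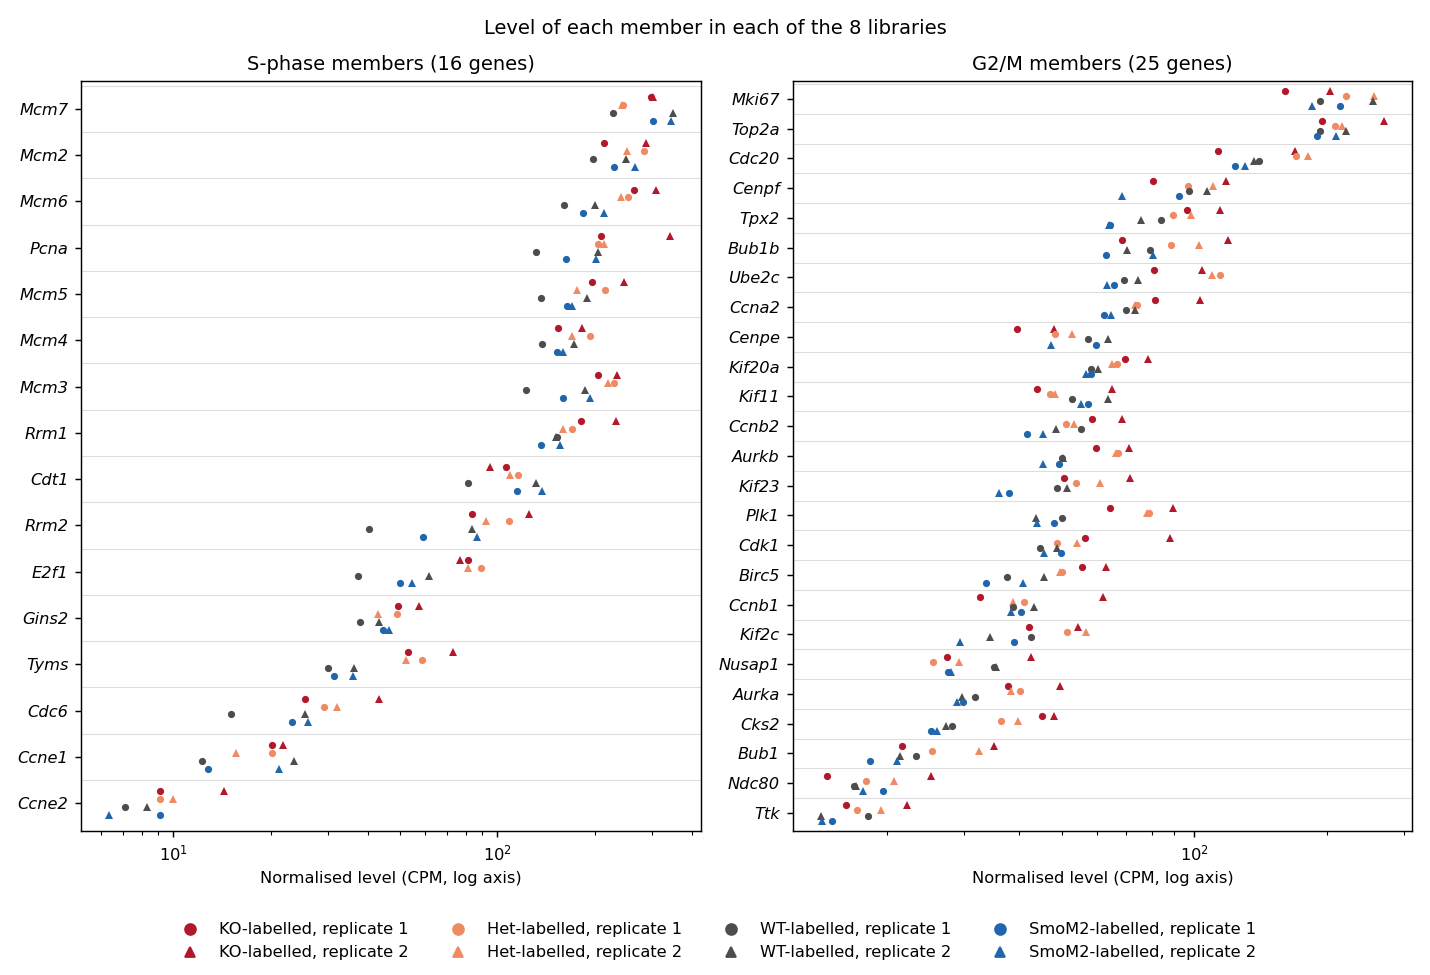
Level of each member (CPM, log axis, not corrected for length) in each library, ordered by the WT-labelled mean. Colours give the group, circles replicate 1 and triangles replicate 2. For Cks2 and Plk1 the 4 KO- and Het-labelled points lie to the right of the other points, while for Mcm7 and Cdt1 the groups overlap.

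Summed over members, per kilobase, both sets had their highest group mean in the KO-labelled libraries, but only the G2/M sums kept the KO- and Het-labelled libraries apart from the others. The S-phase sum was 822 and 1040 CPM per kilobase in the KO-labelled, 857 and 806 in the Het-labelled, 577 and 822 in the WT-labelled and 706 and 823 in the SmoM2-labelled libraries. WT-labelled replicate 1 was the lowest of all 8, and WT-labelled replicate 2 was as high as the lower KO-labelled library. The G2/M sum was 599 and 795 in the KO-labelled, 678 and 706 in the Het-labelled, 559 and 569 in the WT-labelled and 515 and 513 in the SmoM2-labelled libraries. Here all 4 KO- and Het-labelled libraries lay above all 4 others, and the SmoM2-labelled libraries were lowest. The gap was narrow, from 569 in WT-labelled replicate 2 to 599 in KO-labelled replicate 1. By the mean of log2 levels these libraries were at 4.23 and 4.24. By that mean the S-phase set also kept the sides apart, at 5.15 or more against 5.11 or less. As a share of the WT-labelled mean the S-phase sum was 133% in the KO-, 119% in the Het- and 109% in the SmoM2-labelled group, and the G2/M sum was 124%, 123% and 91.2%. The ratio of the G2/M to the S-phase sum was 0.746 ± 0.0256 (SD, n = 2) in the KO-, 0.834 ± 0.0598 in the Het-, 0.831 ± 0.196 in the WT- and 0.677 ± 0.0746 in the SmoM2-labelled group, and the WT-labelled values of 0.969 and 0.692 spanned those of all the other groups but 1 library. That library was SmoM2-labelled replicate 2, at 0.624. No test was made on these sums, since the genes were chosen with results known.

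**Figure D2:**
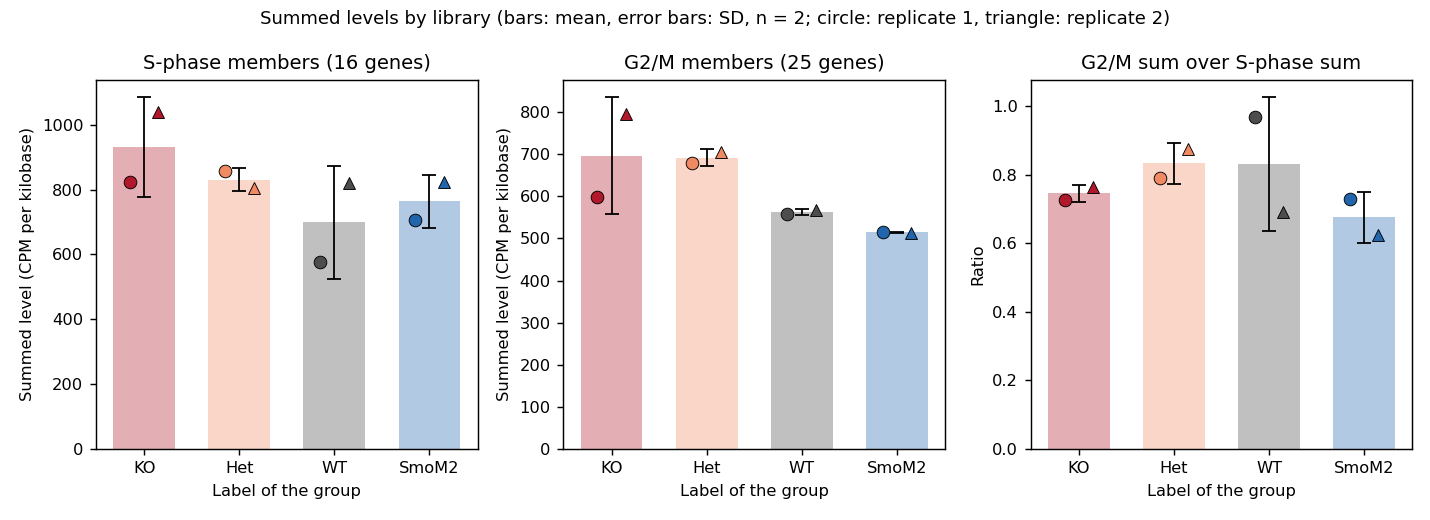
Summed level of the S-phase and G2/M sets (CPM per kilobase) and their ratio by library, with bars for the group mean and error bars for the SD (n = 2). The G2/M sums of the WT- and SmoM2-labelled libraries sit between 513 and 569, below those of all KO- and Het-labelled libraries.

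KO- and WT-labelled libraries were set against each other to see how replication and mitosis genes stand in progenitors without Smo. Of the 41 members 10 rose and none fell past the threshold, an edgeR adjusted p under 0.05 over all tested genes. That is 24.4% of the members, while 23% of all tested genes were called in either direction and 11.6% were called higher. The members called were Tyms, Mcm6, E2f1, Pcna and Rrm1 in the S-phase set (31.2% of 16) and Cks2, Plk1, Cdk1, Birc5 and Aurka in the G2/M set (20% of 25). The median log2 change was 0.48 in the S-phase and 0.32 in the G2/M set, against 0.03 over all tested genes, and 35 of the 41 changes were above 0. KO- and WT-labelled values did not overlap in 21 members (62% of all tested genes did not).

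In the S-phase set Tyms, the enzyme that makes thymidylate, had the largest rise. It was at 52.9 and 73.1 CPM in the KO-labelled, 58.8 and 52.3 in the Het-labelled, 30.0 and 36.0 in the WT-labelled and 31.3 and 35.9 in the SmoM2-labelled libraries. All KO- and Het-labelled values lay above all WT- and SmoM2-labelled ones, and between KO- and WT-labelled libraries it rose by 0.93 on the log2 scale (SE 0.18, edgeR adjusted p 0.00417), a 1.91-fold rise. A copy listed as Tyms-ps had at most 4 counts in any library, against 239 or more for Tyms. Mcm6, a subunit of the helicase, was at 264 and 309 CPM in the KO-labelled, 254 and 241 in the Het-labelled, 161 and 201 in the WT-labelled and 185 and 214 in the SmoM2-labelled libraries. It rose by 0.67 on the log2 scale (SE 0.14, edgeR adjusted p 0.008), and again the 4 KO- and Het-labelled values were the highest. E2f1 was at 81.2 and 76.8 CPM in the KO-labelled, 88.8 and 81.1 in the Het-labelled, 37.3 and 61.4 in the WT-labelled and 49.96 and 54.5 in the SmoM2-labelled libraries, without overlap between the former 4 and the latter 4. Between KO- and WT-labelled libraries it rose by 0.68 on the log2 scale (SE 0.20, edgeR adjusted p 0.0282).

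Pcna, the polymerase clamp, rose less evenly. It was at 209 and 342 CPM in the KO-labelled, 204 and 214 in the Het-labelled, 132 and 204 in the WT-labelled and 163 and 201 in the SmoM2-labelled libraries. KO-labelled replicate 1 and WT-labelled replicate 2 were close, and the change was 0.72 (SE 0.23, edgeR adjusted p 0.0465). Rrm1, the large subunit of ribonucleotide reductase, changed by 0.45 (SE 0.14, edgeR adjusted p 0.0374). Its partner Rrm2 had a larger estimate, 0.76, but also a larger error (SE 0.31, edgeR adjusted p 0.0929), with 40.1 and 83.7 CPM in the 2 WT-labelled libraries. Neither loading factor passed, and Cdc6 differed by 0.77 (SE 0.27, edgeR adjusted p 0.064) and Cdt1 by -0.08 (SE 0.20, edgeR adjusted p 0.8). Mcm5, a helicase subunit, was at 196 and 246 CPM in the KO-labelled, 215 and 176 in the Het-labelled, 136 and 190 in the WT-labelled and 165 and 170 in the SmoM2-labelled libraries. The KO-labelled values were above the WT-labelled ones, but the change did not pass (0.44, SE 0.17, edgeR adjusted p 0.0869). The 5 helicase subunits other than Mcm6 differed by between 0.06 (Mcm7) and 0.51 (Mcm3), none past the threshold, and the cyclins Ccne1 and Ccne2 by 0.23 (SE 0.32) and 0.61 (SE 0.29).

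In the G2/M set Cks2, a small protein that binds Cdk1, had the largest rise. It was at 45.1 and 47.9 CPM in the KO-labelled, 36.3 and 39.7 in the Het-labelled, 28.1 and 27.2 in the WT-labelled and 25.2 and 25.98 in the SmoM2-labelled libraries. The groups followed each other in that order with no overlap, and Cks2 rose by 0.75 from WT- to KO-labelled libraries (SE 0.14, edgeR adjusted p 0.00436). Plk1, the polo kinase of mitotic entry and exit, was at 64.4 and 89.4 CPM in the KO-labelled, 78.8 and 77.9 in the Het-labelled, 49.9 and 43.6 in the WT-labelled and 47.9 and 43.9 in the SmoM2-labelled libraries. KO- and Het-labelled values lay above the rest, and the change was 0.72 (SE 0.16, edgeR adjusted p 0.00987). Cdk1, the kinase of mitosis, was at 56.4 and 88.1 CPM in the KO-labelled, 48.6 and 54.0 in the Het-labelled, 44.6 and 48.7 in the WT-labelled and 49.9 and 45.5 in the SmoM2-labelled libraries. KO-labelled replicate 2 stood far above all others, and the change was 0.63 (SE 0.18, edgeR adjusted p 0.0298). Birc5, a subunit of the chromosomal passenger complex, rose by 0.52 (SE 0.15, edgeR adjusted p 0.0319), and Aurka, the kinase of the spindle poles, by 0.51 (SE 0.16, edgeR adjusted p 0.0406), though the adjusted p of Aurka was above 0.05 in most alternatives.

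Mki67, the gene of the Ki-67 antigen, did not pass. It was at 161 and 203 CPM in the KO-labelled, 222 and 257 in the Het-labelled, 193 and 254 in the WT-labelled and 215 and 185 in the SmoM2-labelled libraries, with overlap between KO- and WT-labelled values (log2 -0.29, SE 0.17, edgeR adjusted p 0.219). Top2a, which untangles DNA, differed by 0.17 (SE 0.15, edgeR adjusted p 0.451). The lowest change was that of Cenpe, a kinetochore motor, at 39.6 and 47.9 CPM in the KO- and 57.4 and 63.8 in the WT-labelled group (log2 -0.47, SE 0.16, edgeR adjusted p 0.0524). With relative log expression scaling Cenpe passed (edgeR adjusted p 0.0451), so that 7 members were called higher and 1 lower, and 23% of all tested genes were called. Cenpe also passed as lower in a test of every counted gene (edgeR adjusted p 0.0174). The same held for genes with at least 10 counts in every library (edgeR adjusted p 0.0383).

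The count of 10 rested on single libraries. Leaving 1 library out could move it, but the share of all tested genes called fell as well, so those counts are given only as a range further below. This includes libraries of the other groups, which share the scaling, the filter and the estimate of spread. The median change was 0.27 in the S-phase and 0.01 in the G2/M set without KO-labelled replicate 2, 0.51 in the G2/M set without KO-labelled replicate 1 and 0.31 in the S-phase set without WT-labelled replicate 1. Of 19 alternatives Cks2 was called in 19, Tyms in 18, Mcm6 in 17, Plk1 in 15, E2f1 in 14, Cdk1 in 12, Birc5 in 11, Pcna in 10, Rrm1 in 9 and Aurka in 5. The count of 10 became 19 with the library totals that the deposited RPKM values imply (23.2% of all tested genes). Markers of other states moved with the comparison. Early nephron markers summed to 1431 and 1770 CPM in the KO-labelled and to between 513 and 834 CPM in the other libraries, and their part in the result was not tested. The 10 dissociation stress genes summed to 4039 and 5933 CPM in the KO- and to 2868 and 3037 CPM in the WT-labelled libraries. Of these genes 4 were called higher and none lower (40%, against 23% of all tested genes), and 8 changes were above 0. Egr1, the highest of them, was at 1341 and 2326 CPM in the KO- and 1344 and 1335 CPM in the WT-labelled libraries. With the mean log2 CPM of the stress genes as a covariate 1 member, Cks2, was called, and the median change of the members was 0.25. The share of all tested genes called was then 11.2%, against 23% without this covariate.

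**Figure D3:**
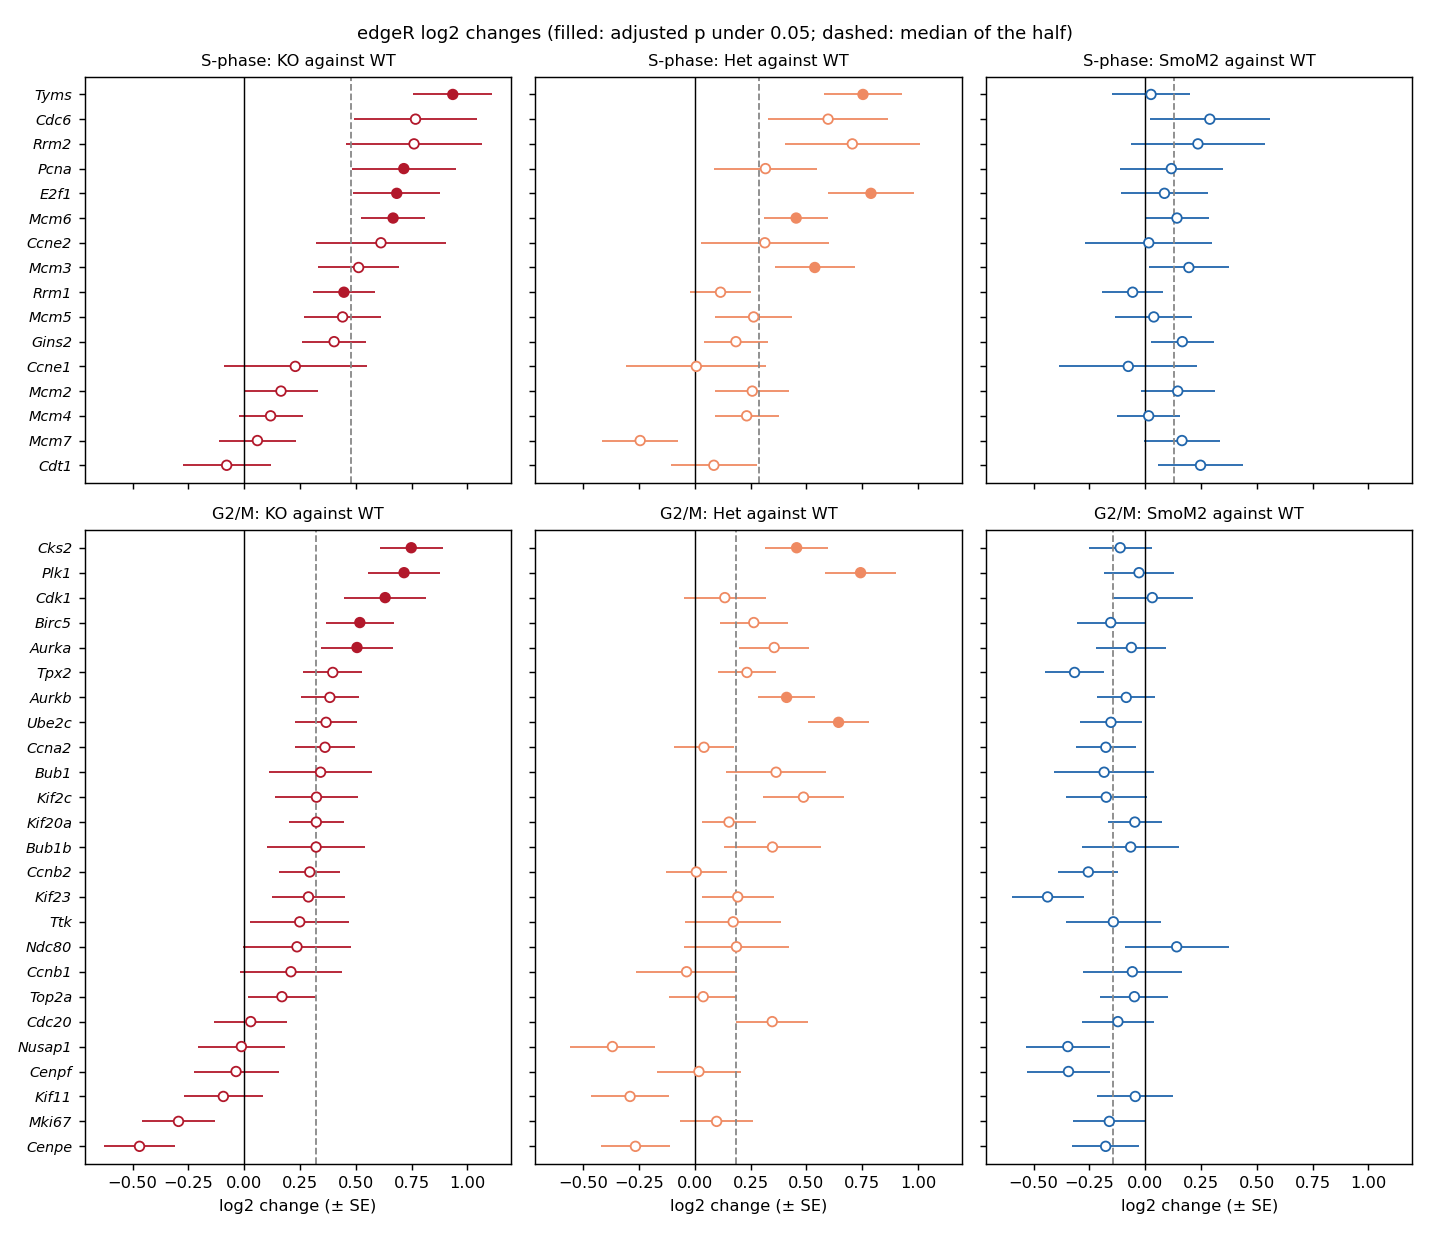
edgeR log2 changes (± SE) against the WT-labelled group for S-phase members (top) and G2/M members (bottom), with filled points for an adjusted p under 0.05 and a dashed line for the median of each set. In the SmoM2 panels no point is filled, and the medians are 0.13 for the S-phase and -0.14 for the G2/M set.

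Het- and WT-labelled libraries bear on these genes in progenitors labelled as having 1 conditional allele of Smo. Of the 41 members 8 rose and none fell (19.5%), while 25.3% of all tested genes were called in either direction and 13.1% were called higher. They were E2f1, Tyms, Mcm3 and Mcm6 in the S-phase set and Plk1, Ube2c, Cks2 and Aurkb in the G2/M set. The median log2 change was 0.29 in the S-phase and 0.19 in the G2/M set, against -0.02 over all tested genes. Het- and WT-labelled values did not overlap in 27 members, while 66.9% of all tested genes did not. The S-phase median was 0.11 without WT-labelled replicate 1, 0.51 without WT-labelled replicate 2 and 0.15 with sex as a covariate, and the G2/M median was 0.08 without Het-labelled replicate 2 and 0.30 with GC and length trends removed.

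E2f1 changed by 0.79 (SE 0.19, edgeR adjusted p 0.0129) and Tyms by 0.75 (SE 0.17, edgeR adjusted p 0.00975), beside 0.68 and 0.93 in the KO- against WT-labelled comparison, which shares the WT-labelled libraries. Mcm3, a helicase subunit, was at 229 and 219 CPM in the Het-labelled, 205 and 235 in the KO-labelled, 123 and 186 in the WT-labelled and 160 and 193 in the SmoM2-labelled libraries. It changed by 0.54 (SE 0.18, edgeR adjusted p 0.0474), with no overlap between KO- or Het-labelled and the other libraries. Mcm6 changed by 0.45 (SE 0.14, edgeR adjusted p 0.0366).

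In the G2/M set Plk1 changed by 0.74 (SE 0.16, edgeR adjusted p 0.00697) and Cks2 by 0.46 (SE 0.14, edgeR adjusted p 0.0339). Ube2c, the ubiquitin-conjugating enzyme of the anaphase-promoting complex, was at 114 and 110 CPM in the Het-labelled, 81.0 and 104 in the KO-labelled, 69.1 and 74.5 in the WT-labelled and 65.7 and 63.4 in the SmoM2-labelled libraries. The Het-labelled libraries were the highest, and the change was 0.64 (SE 0.14, edgeR adjusted p 0.00712). Aurkb, the kinase of the chromosomal passenger complex, was at 67.0 and 66.4 CPM in the Het-labelled, 59.7 and 71.1 in the KO-labelled, 49.9 and 50.4 in the WT-labelled and 49.1 and 45.4 in the SmoM2-labelled libraries. Its change was 0.41 (SE 0.13, edgeR adjusted p 0.0366), and again the KO- and Het-labelled values lay above the rest. Nusap1, which bundles spindle microtubules, had the lowest change (-0.37, SE 0.19, edgeR adjusted p 0.18).

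The count of 8 rested on single libraries too. Leaving out a Het-, WT- or SmoM2-labelled library lowered it and also the share of all tested genes called, so those counts are given only as a range further below. It was 4 with GC and length trends removed (20.1% of all tested genes). With sex as a covariate it was again 8 (26.5%), of which 6 were among the members named above and 1, Mcm7, was lower. Of 19 alternatives Tyms and Ube2c were each called in 16, E2f1 and Plk1 in 15, Mcm6 in 12, and Mcm3, Aurkb and Cks2 in 8. Stress genes summed to 7991 and 7960 CPM in the Het-labelled libraries, above all 6 others, and with their mean log2 CPM as a covariate no member was called and the median change was -0.05 (-0.18 in the S-phase and -0.03 in the G2/M set). Of all tested genes 1.29% were then called.

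SmoM2- and WT-labelled libraries show these genes with and without the active Smo. No member passed the threshold with edgeR, and none with DESeq2, while 0.223% of all tested genes were called, 0.156% higher and 0.0669% lower. At an unadjusted p under 0.05 there were 2 members, Kif23 and Tpx2. The median change was 0.13 in the S-phase set, where 14 of 16 changes were above 0, and -0.14 in the G2/M set, where 2 of 25 were above 0. Over all tested genes it was 0.0031, with 50.6% above 0. SmoM2- and WT-labelled values did not overlap in 13 members, 12 of them in the G2/M set, while 35.8% of all tested genes did not. The S-phase median was -0.10 without WT-labelled replicate 1 and 0.41 without WT-labelled replicate 2, so its sign rested on 1 library. It was 0.26 without SmoM2-labelled replicate 1 and 0.04 without SmoM2-labelled replicate 2. The G2/M median lay between -0.14 and -0.09 when any WT- or SmoM2-labelled library was left out. Stroma markers summed to 665 and 539 CPM in the SmoM2-labelled and 488 and 323 in the WT-labelled libraries, and collecting duct markers to 33.6 and 46.5 against 21.4 and 18.2 CPM. The highest gene of each list led these differences, Foxd1 (384 and 300 against 196 and 171 CPM) and Wnt11 (24.1 and 34.2 against 9.78 and 7.51 CPM). The next highest overlapped between the groups, Col1a1 at 148 and 138 against 145 and 80.3 CPM and Krt18 at 5.52 and 7.04 against 5.77 and 4.35 CPM. The part of these markers in the medians was not tested. With the stress covariate the S-phase median was -0.08 and the G2/M median -0.20.

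Kif23, a motor of the midzone where daughter cells part, was at 37.9 and 36.0 in the SmoM2-labelled, 48.7 and 51.5 in the WT-labelled, 50.7 and 71.6 in the KO-labelled and 53.7 and 60.9 CPM in the Het-labelled libraries. The SmoM2-labelled libraries were the lowest of all 8, and the change was -0.44 (SE 0.16, edgeR adjusted p 0.49). Tpx2, which activates Aurka on the spindle, was at 64.4 and 63.9 CPM in the SmoM2- and 84.1 and 75.5 CPM in the WT-labelled libraries, a change of -0.32 (SE 0.13, edgeR adjusted p 0.603). In the S-phase set the largest difference was that of Cdc6 (0.29, SE 0.27, edgeR adjusted p 0.911).

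KO- and Het-labelled libraries were also compared directly, which tests whether members called against the WT-labelled group in only 1 of those comparisons differed between the 2 labels. No member passed with edgeR or DESeq2, while 9.43% of all tested genes were called, 4.33% higher and 5.1% lower, and 4 members had an unadjusted p under 0.05. These were Cdk1 (0.50, SE 0.19, edgeR adjusted p 0.111), Rrm1 (0.33, SE 0.14, edgeR adjusted p 0.148), Ccna2 (0.32, SE 0.14, edgeR adjusted p 0.156) and Mki67 (-0.39, SE 0.17, edgeR adjusted p 0.152). The median change was 0.18 in the S-phase and 0.10 in the G2/M set. Without KO-labelled replicate 2 both medians were below 0, at -0.08 and -0.18, so the direction between these groups rested on that library. Both were 0.32 without KO-labelled replicate 1, and they were 0.24 and 0.0018 without Het-labelled replicate 1 and 0.06 and 0.14 without Het-labelled replicate 2. Both KO-labelled libraries were male and both Het-labelled libraries female, so in this comparison label and sex cannot be told apart within the 2 groups. With sex as a covariate, estimated from the other groups, the medians were 0.41 and 0.08. In that fit 2 members, Mcm7 and Ccne1, were called, beside 8.3% of all tested genes.

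A test for any difference over the 4 groups called 16 members (39%), while 41% of all tested genes were called. These were 4 of the S-phase set (Mcm6, Rrm1, Tyms and E2f1) and 12 of the G2/M set. Among the 16, the highest group mean was that of the KO-labelled libraries in 11 and of the Het-labelled libraries in 5. The lowest was that of the SmoM2-labelled libraries in 12 and of the WT-labelled libraries in 4. No such tally was made for all genes called, so this order cannot be read as particular to the members. The strongest were Cks2 (edgeR adjusted p 0.00219), Tyms (0.00246), Plk1 (0.00291) and Ube2c (0.00342). Leaving 1 library out could move the count and lowered the share of all tested genes called, so those counts are given only as a range further below. With the stress covariate the count was 11 (30.4% of all tested genes). In 14 of the 41 members all 4 KO- and Het-labelled libraries lay above all 4 WT- and SmoM2-labelled libraries (34.1%, against 16.5% of all tested genes), and in none did they all lie below (16.6% of all tested genes). Among other cell cycle genes described below, they lay above in 24 of 57 S-phase genes (42.1%) and 13 of 68 G2/M genes (19.1%). They lay below in 3 (5.26%) and 0 of these. The 14 were Mcm3, Mcm6, Pcna, Rrm1, Tyms, E2f1, Aurka, Aurkb, Plk1, Kif20a, Tpx2, Birc5, Cks2 and Ube2c. Erythroid markers summed to between 13.7 and 45.1 CPM in the KO- and Het-labelled and to between 2.77 and 7.87 CPM in the other libraries. The 8 progenitor markers (3976 to 5308 against 3333 to 3836 CPM) and the 8 collecting duct markers (5.60 to 11.504 against 18.2 to 46.5 CPM) also split these sides without overlap. So did Foxd1 of the stroma list, singled out after its values were seen, at 3.70 to 22.4 against 171 to 384 CPM. No other gene of that list did. Col1a1 was at 32.8 to 379 against 80.3 to 148 CPM, and the whole stroma list summed to 75.9 to 592 against 323 to 665 CPM. The part of these in the result was not tested. The labels name no batch, and a batch that followed these sides could not be told apart from the groups.

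The 2 libraries of a group also differed in these genes, the S-phase set most in the WT-labelled and the G2/M set most in the KO-labelled pair. In the WT-labelled pair 15 of 16 S-phase members were higher in replicate 2, by a median of 0.54 on the log2 scale, while the G2/M median was 0.02, with 15 of 25 higher. In the SmoM2-labelled pair 15 of 16 S-phase members were higher in replicate 2 as well (median 0.19), and 9 of 25 G2/M members were (median -0.05). In both pairs replicate 2 was the female library, so sex and library cannot be told apart. With sex as a covariate 14 members were called in the KO- against WT-labelled comparison, 11 of them in the S-phase set. Of all tested genes 22.9% were called in that fit. In the KO-labelled pair, both male, 25 of 25 G2/M members (median 0.45) and 14 of 16 S-phase members (median 0.28) were higher in replicate 2. In the Het-labelled pair the medians were -0.11 for the S-phase and 0.13 for the G2/M set. Over all tested genes between 48.8% and 50.6% were higher in replicate 2 of a group.

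Other markers moved with the KO-labelled pair. The 7 stroma markers were all detected in both libraries and summed to 592 CPM in replicate 1 and 75.9 CPM in replicate 2, led by Col1a1 at 379 and 32.8 CPM, while immune markers summed to 15.5 and 0.218 CPM and erythroid markers to 45.1 and 13.7 CPM. Of the 6 immune markers 5 were at 0 in replicate 2. The stroma markers summed to between 142 and 310 CPM in the Het-labelled, 323 and 488 CPM in the WT-labelled and 539 and 665 in the SmoM2-labelled libraries. Their part in the results was not tested.

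**Figure D4:**
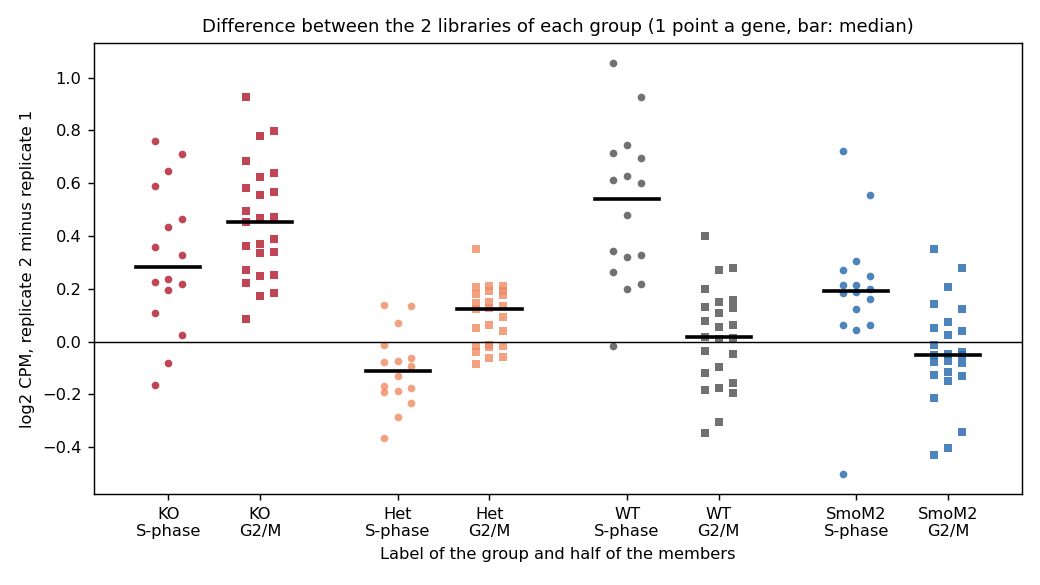
Difference in log2 CPM between replicate 2 and replicate 1 of each group for S-phase members (circles) and G2/M members (squares), 1 point a gene, with bars for the medians. The WT-labelled S-phase median is 0.54 and the KO-labelled G2/M median 0.45.

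Of 57 other S-phase genes, all tested, 25 rose and 1 fell in the KO- against WT-labelled comparison (45.6%, against 23% of all tested genes), with a median of 0.46. The count of 26 was 16 in a fit on the 2 groups alone (20.3% of all tested genes). It was 17 with GC and length trends removed (16.2%) and 9 with the stress covariate (11.2%). The median was 0.38 without KO-labelled replicate 2, 0.42 without WT-labelled replicate 1 and 0.57 without KO-labelled replicate 1. Cdc7, the kinase that fires origins, was at 34.4 ± 3.62 CPM (SD, n = 2) in the KO- and 15.2 ± 0.882 in the WT-labelled group (log2 1.18, SE 0.19, edgeR adjusted p 0.00167). Nasp, a histone chaperone, rose by 1.15 (SE 0.20, edgeR adjusted p 0.00266) and Dut, which keeps uracil out of DNA, by 1.06 (SE 0.17, edgeR adjusted p 0.00193). The gene that fell was Mcm9, a relative of the helicase subunits that acts in DNA repair (log2 -0.59, SE 0.18, edgeR adjusted p 0.0345). In the Het- against WT-labelled comparison 12 of the 57 rose and 2 fell (24.6%, against 25.3% of all tested genes), with a median of 0.11. Cdc7 again had the largest change (1.28, SE 0.18, edgeR adjusted p 0.000921), followed by the histone chaperone Asf1b (0.99) and the polymerase subunit Pold1 (0.89), while Mcm9 and the origin recognition subunit Orc3 fell by 0.67 and 0.53. That count of 14 was 9 with sex as a covariate (26.5% of all tested genes) and 0 with the stress covariate (1.29%). The median was 0.10 and 0.13 without Het-labelled replicate 1 or 2, and 0.09 and 0.18 without WT-labelled replicate 1 or 2.

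Of 68 other G2/M genes, all tested, 10 rose and 1 fell in the KO- against WT-labelled comparison (16.2%, below the 23% of all tested genes), with a median of 0.20. The largest rises were those of Cenpm, a centromere protein (0.87, SE 0.18, edgeR adjusted p 0.00598), Ccnf, cyclin F (0.83, SE 0.19, edgeR adjusted p 0.0105), and Gtse1 (0.76, SE 0.19, edgeR adjusted p 0.0143). Hjurp, the chaperone that places the centromeric histone, was at 119 ± 2.46 CPM in the KO- and 236 ± 61.1 in the WT-labelled group, a fall (log2 -0.99, SE 0.18, edgeR adjusted p 0.00393). The count of 11 was 1 with the stress covariate (11.2% of all tested genes). The median was 0.01 without KO-labelled replicate 2, 0.36 without KO-labelled replicate 1 and 0.20 without either WT-labelled library. In the Het- against WT-labelled comparison 8 rose and 1 fell (13.2%, below the 25.3% of all tested genes; median 0.08), with Troap (1.05, SE 0.20, edgeR adjusted p 0.00401), the separase gene Espl1 (0.73, SE 0.12, edgeR adjusted p 0.00214) and Ccnf (0.73, SE 0.18, edgeR adjusted p 0.0149) leading and the centrosomal kinase Nek2 lower (-0.57, SE 0.16, edgeR adjusted p 0.0241). That count of 9 was 0 with the stress covariate (1.29% of all tested genes). The median was 0.08 and -0.0096 without Het-labelled replicate 1 or 2, and 0.10 and 0.06 without WT-labelled replicate 1 or 2. None of the 57 or 68 genes passed in the SmoM2- against WT-labelled comparison, where 1 and 2 had an unadjusted p under 0.05.

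Regulators of these genes made up another list. Of its 22 genes of the E2F, RB and MuvB machinery and its inhibitors, 2 rose and 1 fell in the KO- against WT-labelled comparison (13.6%, against 23% of all tested genes; median 0.04), and 2 rose and 2 fell in the Het- against WT-labelled comparison (18.2%, against 25.3%; median 0.13). E2f3, an activator like E2f1, was at 113 ± 2.43 CPM in the KO- and 78.9 ± 9.44 in the WT-labelled group (log2 0.52, SE 0.13, edgeR adjusted p 0.0156). Tfdp2, a dimer partner of E2F factors, was at 82.5 ± 11.6 CPM in the KO- and 149 ± 9.09 in the WT-labelled group, a fall (log2 -0.86, SE 0.14, edgeR adjusted p 0.00219). Cdkn1c, an inhibitor of cyclin-dependent kinases, rose by 1.00 (SE 0.22, edgeR adjusted p 0.00967). In the Het- against WT-labelled comparison the changes were 0.48 for E2f3, -0.93 for Tfdp2 and 1.15 for Cdkn1c, and Cdkn1a, the inhibitor that p53 turns on, fell by 1.71 (SE 0.40, edgeR adjusted p 0.0111). With the stress covariate the count of 3 was 4 (11.2% of all tested genes) and the count of 4 was 0 (1.29%). The KO- against WT-labelled median was 0.20 without KO-labelled replicate 1 and -0.03 without KO-labelled replicate 2. The Het- against WT-labelled median was 0.07 without Het-labelled replicate 1 and 0.11 without Het-labelled replicate 2.

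**Figure D5:**
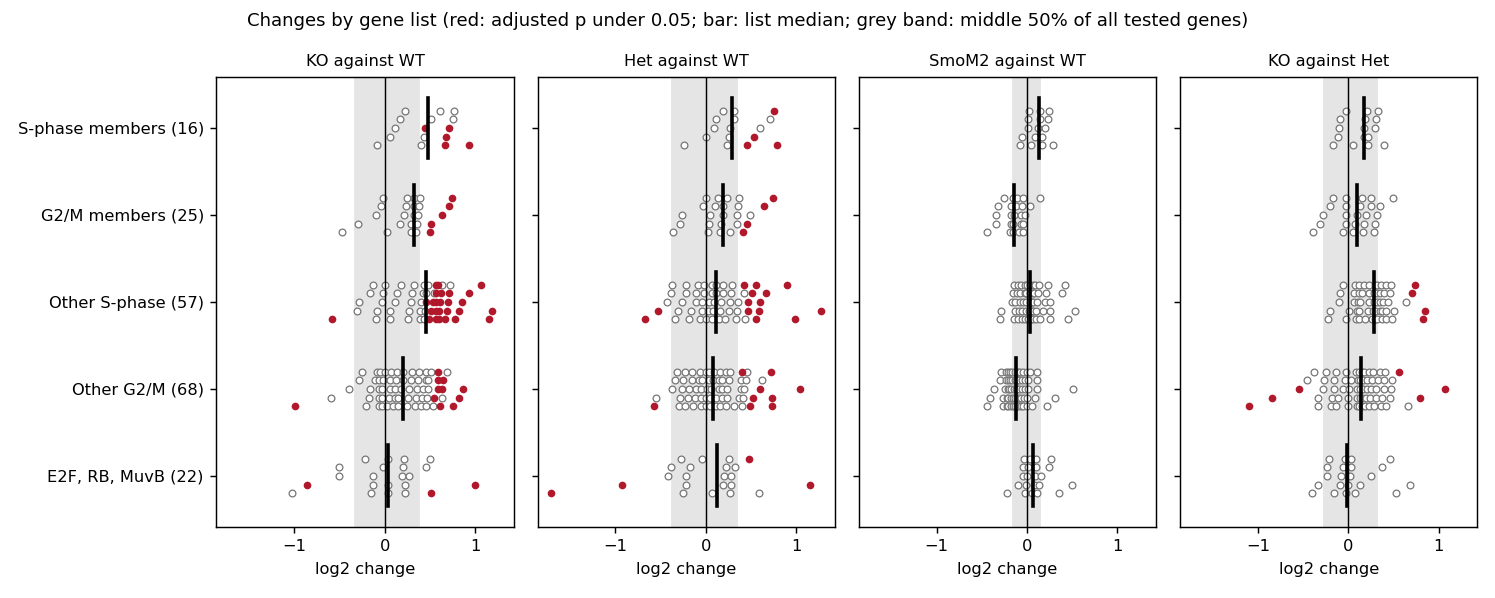
edgeR log2 changes of the S-phase and G2/M members and of 3 lists of other cell cycle genes in 4 comparisons, with red points for an adjusted p under 0.05, bars for list medians and a grey band from the lower to the upper quartile of all tested genes. In the KO against WT panel the medians of the S-phase members (0.48) and other S-phase genes (0.46) lie at or beyond the upper edge of the band, and in the SmoM2 against WT panel no point is red.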

How the data were processed

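Libraries of polyadenylated RNA from sorted nephron progenitors were used as 1 deposited table. The raw read counts per gene and the RPKM values were made by the authors, per the file headers, with a gene length in bases. STAR, featureCounts, Subread and mm10 are named, without versions, in the submitters' processing notes, and the strand setting is not given in the sources used here. The listed counts made up 81.1% to 83.3% of the totals that the deposited RPKM values imply, and RPKM entered as an alternative scale.

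The test was that of edgeR 4.0.16 (R 4.3.3): filterByExpr on the groups, trimmed mean of M values (TMM), a quasi-likelihood model of all 8 libraries with a mean for each group (4 residual degrees of freedom, biological coefficient of variation 13.5%), and Benjamini-Hochberg adjustment over 13459 genes at 0.05. The standard error is that implied by the quasi-likelihood statistic, and tests are two-sided. An exact permutation of 2 against 2 libraries cannot go below p = 0.333. CPM use TMM-scaled totals, and log2 CPM a prior count of 2. DESeq2 1.42.0 was an alternative. GC content came from GENCODE transcripts.

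The members and lists were chosen with earlier results of these data known. Every member may be named. Of each other list the text names, for a comparison, at most 3 genes higher and 3 lower: the largest changes past the threshold without overlap between groups, where the average log2 CPM was 1 or more. Listed symbols Sgol1 and Sgol2a were matched as older names. Of 35 promoter entries of members, 24 continue into a GENCODE transcript of the gene on the same strand.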

Additional observations from a re-analysis of the deposited data

How the results depend on the processing

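The count of members called in KO- against WT-labelled libraries ranged from 3 to 13 when 1 library was left out, and was 19 with library totals implied by the RPKM values and 1 with the stress covariate. In Het- against WT-labelled libraries it ranged from 0 to 8 when 1 library was left out, and was 4 with GC and length trends removed and 0 with the stress covariate. In KO- against Het-labelled libraries it ranged from 0 to 1, and was 2 in a test of every counted gene and 2 with sex as a covariate. For any difference over the 4 groups it ranged from 7 to 23. In SmoM2- against WT-labelled libraries it was 0 under every alternative run. As a share of the WT-labelled level, the G2/M level was 114% in the Het-labelled group by a mean of log2 levels, and in the SmoM2-labelled group 87.8% without TMM and 88.8% in RPKM. The cause of these shifts was not tested. Leaving 1 library out also lowered the share of all tested genes called in KO against WT and over the 4 groups. It did so in Het against WT except for a KO-labelled library, and in KO against Het except for a WT-labelled library. The ranges therefore do not show that the members were less stable than other genes.

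All 190 alternative values of the members called in KO- against WT-labelled libraries kept their direction, and 150 of 152 in Het- against WT-labelled libraries did. The exceptions were Mcm3 (-0.10) and Mcm6 (-0.0246) with the stress covariate. Cenpf in KO- against WT-labelled libraries was at 0.50 once trends with GC and length had been removed, and then passed. The correlation of same-numbered libraries' deviations was between -0.06 and 0.39, so the numbers were not taken to pair the samples. With a replicate block 13, 10, 0 and 0 members were called in KO against WT, Het against WT, SmoM2 against WT and KO against Het, and 20 over the 4 groups. The shares of all tested genes were 24.8%, 27.4%, 0.401%, 11.3% and 43.6%. The covariates for sex and stress, the GC and length trends and the RPKM totals were added after the data were seen.

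Depth limits Ccne2, with 41 counts in a library. Exons of 8 members overlap those of another listed gene (Mcm7, Gins2, Ccne2, Ccna2, Cdc20, Kif20a, Nusap1 and Ube2c), and reads of the partners cannot be told apart if strand was not used. Pseudogene copies are annotated for Pcna, Tyms, Ccnb1 and Ccnb2.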

Other observations

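Between KO- and Het-labelled libraries, male and female respectively, the shares of other cell cycle genes called lay below the 9.43% of all tested genes. Of the 57 other S-phase genes 4 were called (7.02%), all with higher KO-labelled values, at a median change over the list of 0.29. Tipin, which stabilises the replication fork with Timeless, was at 55.1 ± 7.87 CPM (SD, n = 2) in the KO- and 30.6 ± 1.07 CPM in the Het-labelled libraries (log2 0.85, SE 0.15, edgeR adjusted p 0.0108). Gins1, a partner of Gins2, and Gmnn, the inhibitor of Cdt1, were higher by 0.82 and 0.73. The median of the list was 0.33 and 0.15 without KO-labelled replicate 1 or 2, and 0.24 and 0.21 without Het-labelled replicate 1 or 2. With GC and length trends removed the count of 4 was 0, but the share of all tested genes called fell as well. Of the 68 other G2/M genes 6 were called (8.82%), with the kinetochore genes Cenpk (1.07), Cenph (0.79) and Spc25 (0.56) higher and Hjurp (-1.10), Troap (-0.85) and the condensin subunit Ncapd2 (-0.55) lower. The median of this list was 0.14. It was 0.28 and -0.07 without KO-labelled replicate 1 or 2, and 0.08 and 0.15 without Het-labelled replicate 1 or 2. With GC and length trends removed the count of 6 was 1, in the same fit with a lower share of all tested genes called.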
